A study of Rattus norvegicus with 50 samples.

Results

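The genes described here build and assemble the motile cilium of the rat lung: axonemal dynein chains and their assembly factors, radial spoke heads, tektins, and the cilia and flagella associated proteins (CFAP). They were taken by symbol, as every probe set whose platform annotation gave a single gene named Dnah, Dnai, Dnal, Dnali, Dnaaf, Rsph, Tekt or Cfap followed by a number and at most 1 letter. This gave 57 genes, measured by 62 probe sets, of 14557 genes named on the array. A further probe set carried 2 gene names and was not used. Lung RNA was hybridised to 50 Affymetrix Rat Gene 2.1 ST arrays, and the deposited values are log2 signals. All rats were male Sprague-Dawley animals, 9 weeks old when bought, that stayed in whole-body inhalation chambers, 1 animal to a chamber, for 5 h a day over at most 21 days in a row. PEP rats breathed printer-emitted particles (PEPs, with the gases of the same laser printer), and Air rats breathed HEPA-filtered air. PEP and Air lungs were taken at day 1, day 5 and day 9 (5 lungs per group) and at day 21 (6 lungs per group), and at day 21 also from rats that carried a radio telemetry implant (T, 4 lungs per group). The tissue was labelled lung, although blood is mentioned in the free text of the same records. Alveolar markers stood high in every group, with group means of 11.3 to 11.5 for 7 type 2 cell genes and of 11.5 to 11.8 for 5 type 1 cell genes, against 4.50 to 5.53 for 3 erythroid genes. Exposures were run in different years, and since neither year nor plate is given per lung, a batch could neither be tested nor adjusted for. That each array holds a separate rat is not stated either, and p-values reflect the spread between arrays as deposited.

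Motile cilia beat on the ciliated cells of the conducting airways and move the mucus layer towards the throat. Their core, the axoneme, is a ring of doublet microtubules around a central pair. Dynein arms on each doublet pull on the neighbouring doublet, radial spokes and central pair projections set the rhythm of the arms, and tektins with other microtubule inner proteins stiffen the doublet wall. The dynein arms are put together in the cytoplasm by a dedicated set of assembly factors before they enter the cilium, and in humans the loss of many of these genes causes primary ciliary dyskinesia. Ciliated cells are a small share of the cells of a whole lung, and in RNA of a whole lung fewer ciliated cells and less RNA per ciliated cell cannot be told apart.

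Many cilia genes carry an X-box, the DNA element bound by RFX transcription factors, close to their start. Promoter sequence, from 250 bases before to 50 bases after the annotated start, was found by gene identifier for 46 of the 57 genes in RefSeq on the GRCr8 build. The letters GTNNCC, any 3 bases, then GNAAC were searched on both strands, where the opposite strand reads GTTNC, any 3 bases, then GGNNAC, and were present in the promoters of 8 of the 46 genes (17.4%), against 577 of the promoters of 27457 RefSeq genes (2.1%). The 8 genes were Cfap298, Cfap44, Cfap45, Cfap95, Dnaaf2, Dnaaf5, Dnaaf6 and Tekt4. A forkhead element, GTAAACA on either strand, was present in 4 of the 46 (8.70%), against 1033 of all promoters (3.76%), and 0 of the 46 held both. Such a match is a description of the letters in the window and no test was made of these shares. The search held the spacing fixed, so a similar run of letters with other spacing was not counted. The 4 promoters printed here belong to genes whose lung values are given in full or stand in contrast to them, with the X-box match in capitals. The match began at position -17 from the start in Cfap44, at position -13 in Cfap45, at position -13 in Tekt4 and at position -231 in Cfap298. The windows lie at chr11:69789856-69790155 (minus strand) for Cfap44, chr13:87521581-87521880 (plus strand) for Cfap45, chr10:14992034-14992333 (plus strand) for Tekt4 and chr11:43677333-43677632 (minus strand) for Cfap298.
Cfap44: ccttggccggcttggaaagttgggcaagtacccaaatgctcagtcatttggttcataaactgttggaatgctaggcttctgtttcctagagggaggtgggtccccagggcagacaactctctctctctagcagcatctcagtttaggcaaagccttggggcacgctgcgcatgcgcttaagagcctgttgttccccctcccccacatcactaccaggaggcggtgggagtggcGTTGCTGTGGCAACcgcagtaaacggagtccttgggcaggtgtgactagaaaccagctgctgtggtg
Cfap45: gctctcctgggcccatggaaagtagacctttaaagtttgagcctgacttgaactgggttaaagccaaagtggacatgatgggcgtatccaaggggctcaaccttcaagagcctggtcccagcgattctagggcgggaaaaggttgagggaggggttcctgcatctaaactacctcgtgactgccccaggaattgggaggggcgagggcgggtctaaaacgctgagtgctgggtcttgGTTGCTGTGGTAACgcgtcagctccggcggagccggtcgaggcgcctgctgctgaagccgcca
Tekt4: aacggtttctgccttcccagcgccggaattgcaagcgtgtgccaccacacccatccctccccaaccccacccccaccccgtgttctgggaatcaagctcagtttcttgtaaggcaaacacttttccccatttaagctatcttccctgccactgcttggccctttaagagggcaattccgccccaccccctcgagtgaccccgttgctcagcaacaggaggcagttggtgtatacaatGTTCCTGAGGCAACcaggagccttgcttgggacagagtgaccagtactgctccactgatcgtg
Cfap298: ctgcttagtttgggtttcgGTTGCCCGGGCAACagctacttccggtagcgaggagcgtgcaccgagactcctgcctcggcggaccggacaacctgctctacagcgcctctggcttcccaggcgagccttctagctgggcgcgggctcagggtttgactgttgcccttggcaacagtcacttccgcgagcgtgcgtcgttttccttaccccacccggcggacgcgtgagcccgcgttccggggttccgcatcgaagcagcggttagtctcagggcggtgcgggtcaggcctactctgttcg

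Values of the genes were set against the median named gene, whose mean over the 50 lungs was 6.20 on the log2 scale. By this cut 44 of the 57 genes (77.2%) lay above the median gene and 13 below it. A signal also reflects how well the probes of a set bind, so the cut sorts probe sets and does not rank transcripts. A filter on variance over the 50 lungs (at least 0.05) left 8202 genes for testing, 56.3% of those named, and 49 of the 57 cilia genes (86.0%), namely 37 of the 44 above the median gene and 12 of the 13 below it. Since passing depended on varying between lungs, the 49 are not all the cilia genes, and the other 8 are described at the end. The 12 genes below the median gene included Cfap221 (mean 4.37), a central pair protein, Dnaaf6 (mean 4.40), an assembly factor, Tekt3 (mean 4.68) and Tekt5 (mean 5.29), the last a tektin known from sperm, and Cfap90 (mean 5.10).

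The genes above the median moved from lung to lung as a block. The 37 tested genes above the median gene correlated over the 50 lungs with the mean of the other such genes with a median Pearson r of 0.957, a lowest r of 0.591 and a highest r of 0.982, and 31 of the 37 had an r over 0.9. Deviations from the group means, which leave out any difference between the 10 groups, gave a median r of 0.944. The 12 tested genes below the median gene had a median r of 0.784, with 4 over 0.9. Over the 8153 other tested genes the median r with the mean of the 37 was -0.01, and 126 had an r over 0.9. All these correlations share the same 50 lungs and the same normalization and are given as descriptions. The least like the rest among tested genes were Tekt5 (r = 0.03), Cfap410 (r = 0.17), a protein known from primary cilia and the retina, and Dnaaf2 (r = 0.40), an assembly factor. As deviations from the group means, r was -0.11 for Tekt5, 0.52 for Cfap410 and 0.24 for Dnaaf2. Among those above the median gene the lowest were Cfap141 (r = 0.59), a microtubule inner protein, and Dnaaf5 (r = 0.60), an assembly factor. Cfap44, which with Cfap43 forms the tether of an inner dynein arm in ciliates and green algae, had the highest r, 0.98.

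**Figure D1:**
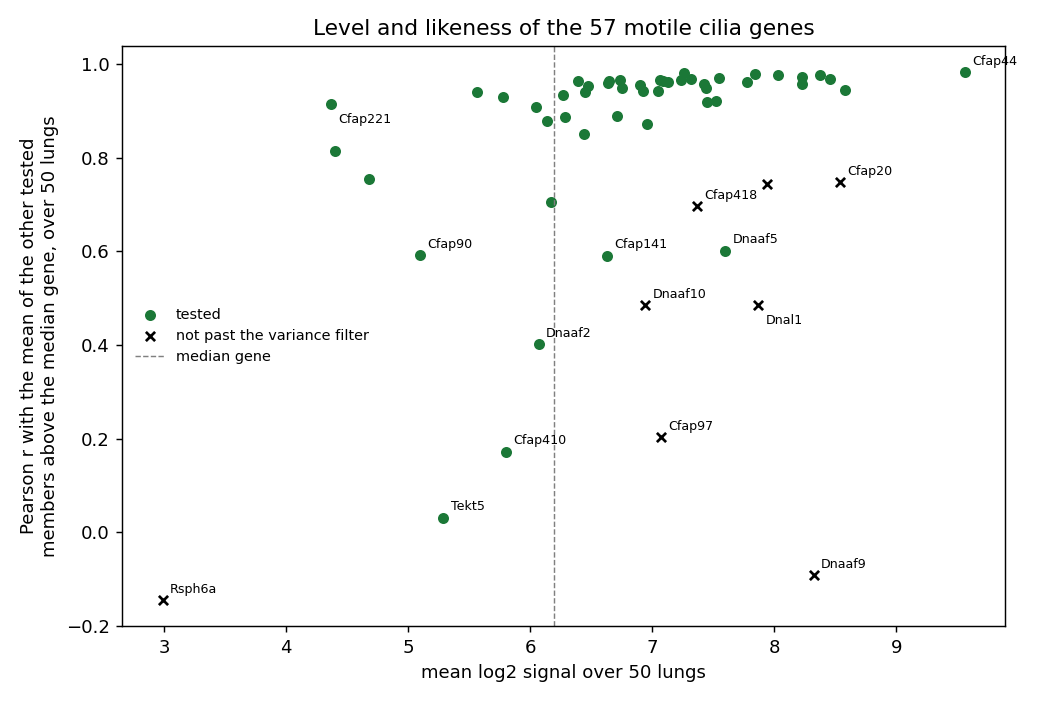
Mean log2 signal over 50 lungs (x axis) against the Pearson r of each gene with the mean of the other tested genes above the median gene (y axis), for 57 motile cilia genes. Circles are genes past the variance filter, crosses are the 8 that were not, and the dashed line is the median named gene at 6.20; most circles right of the line sit above an r of 0.9, while Tekt5, Cfap410, Rsph6a and Dnaaf9 lie near 0.

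Dnah9, the heavy chain of the outer dynein arm of the outer part of the cilium in humans, was the only heavy chain that the symbol rule found with a single-gene probe set. The rule could not reach the 21032 probe sets not named here, so other heavy chains on the array may be missing. It was represented by 5 probe sets, which correlated with each other over lungs with r of 0.919 to 0.983 and had mean levels of 7.77 to 8.58. Cfap46, a central pair protein, had 2 probe sets with an r of 0.945. The brightest set of each was used.

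Averaged over the 37 genes, the level differed between single lungs of a group by as much as it did between groups. At day 1 the mean level of the 37 genes was 6.99, 6.75, 7.32, 6.64 and 6.95 in the PEP lungs and 6.25, 6.16, 7.08, 6.38 and 6.89 in the Air lungs. At day 5 it was 7.41, 7.72, 7.56, 7.66 and 7.25 in the PEP lungs and 7.09, 7.32, 8.13, 7.97 and 7.15 in the Air lungs. At day 9 it was 7.42, 7.22, 7.41, 6.56 and 7.48 in the PEP lungs and 7.15, 6.74, 7.44, 7.27 and 7.22 in the Air lungs. PEP and Air lungs overlapped at each of these days, with 3 low Air lungs at day 1 and 1 low PEP lung at day 9. At day 21 the 6 PEP lungs had a lowest level of 6.43, a median of 7.26 and a highest of 7.76, against 6.92, 8.02 and 8.27 in the 6 Air lungs. The Air lungs of day 21 were split, with 4 lungs between 7.94 and 8.27, above all the PEP lungs of that day, and replicates 2 and 4 at 6.94 and 6.92, below most of them. With the implant the level at day 21 was 7.73, 7.36, 6.88 and 7.79 in the PEP lungs and 6.77, 7.15, 8.20 and 7.91 in the Air lungs, again with overlap.

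**Figure D2:**
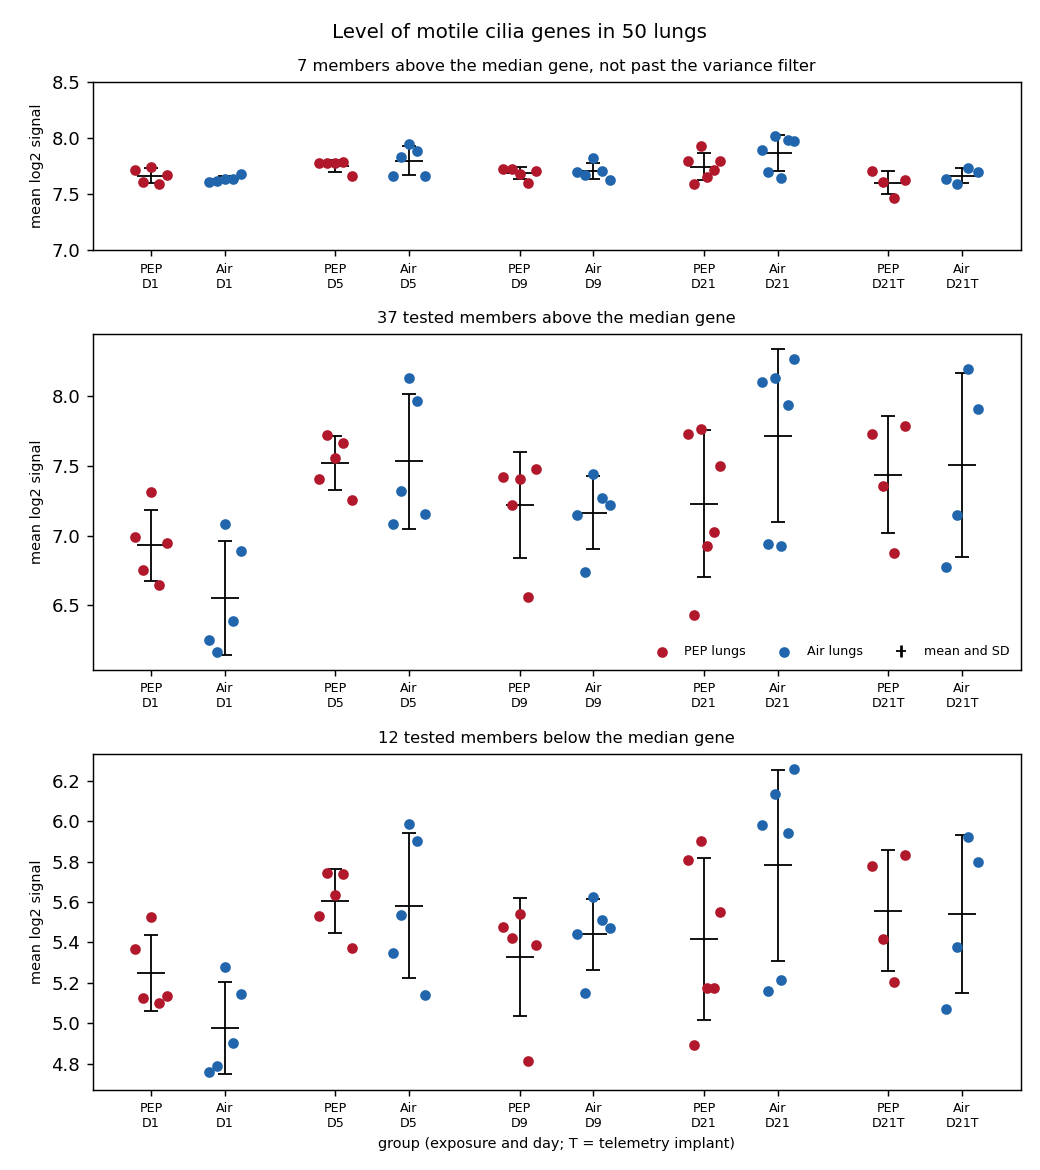
Mean log2 signal (y axis) by lung and group (x axis) of the 7 genes above the median gene that did not pass the variance filter, the 37 tested genes above the median gene and the 12 tested genes below it; red points are PEP lungs, blue points Air lungs, and bars the group mean and SD. The 37 genes averaged 6.93 ± 0.26 in PEP lungs and 6.55 ± 0.41 in Air lungs at day 1, and 7.23 ± 0.53 in PEP lungs and 7.72 ± 0.62 in Air lungs at day 21.

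Differences between PEP and Air lungs were tested at each day with limma, in 1 model over all groups and all 8202 genes, with p-values adjusted by the Benjamini-Hochberg method and a gene called at an adjusted p below 0.05. The question asked was which transcripts differ with inhaled printer particles and after how many days. Model estimates weight the arrays, so they differ slightly from the difference of the plain group means. At day 21 the cilia genes were lower in PEP lungs as a block, and 0 of the 49 were called. Their median log2 difference was -0.58, beside -0.02 over all 8202 genes, and 46 of the 49 were negative. Positive estimates made up 6.12% of the 49, beside 46.1% of all tested genes. An unadjusted p below 0.05 was reached by 30 of the 49 (61.2%), where 14.3% of all tested genes reached it, and 21 of the 49 (42.9%) were 1.5-fold or more lower, where 2.27% of all tested genes were. Of all tested genes, 0.219% were called at this day. The 49 genes move together over lungs, so these counts are not counts of independent results. The median was -0.58 over the 37 genes above the median gene and -0.49 over the 12 below it.

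The radial spoke head gene Rsph4a had a lowest signal of 6.69, a median of 7.70 and a highest of 8.54 in the PEP lungs of day 21, against 7.75, 8.80 and 9.07 in the Air lungs. The ranges overlapped, with 3 PEP lungs below every Air lung. The estimated log2 difference was -0.86 ± 0.30 (SE) with an adjusted p of 0.187. Rsph1, the other spoke head gene tested, had 5.82, 6.92 and 7.39 in the PEP lungs and 6.20, 7.57 and 8.06 in the Air lungs, with a difference of -0.63.

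Among dynein chains, Dnah9 had a lowest signal of 7.19, a median of 8.64 and a highest of 9.16 in the PEP lungs of day 21, against 8.10, 9.4 and 9.67 in the Air lungs. PEP replicate 2 lay well below the others and the ranges overlapped. The difference was -0.62 ± 0.32 (adjusted p = 0.374), and its 5 probe sets gave -0.62 to -0.60. Dnai1, an intermediate chain of the outer arm, had 6.18, 7.11 and 7.38 in the PEP lungs and 6.51, 7.88 and 8.19 in the Air lungs, a difference of -0.76 ± 0.26 (adjusted p = 0.187). Dnai4, an intermediate chain of an inner arm, had 7.6, 8.36 and 8.86 in the PEP lungs and 8.01, 9.04 and 9.33 in the Air lungs, a difference of -0.53 ± 0.26 (adjusted p = 0.333). All 6 intermediate and light chain genes tested were negative, with a median of -0.60.

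Cfap44 had a lowest signal of 8.67, a median of 9.62 and a highest of 10.14 in the PEP lungs of day 21, against 9.23, 10.53 and 10.71 in the Air lungs. The 4 highest lungs of that day without implant were Air lungs, and Air replicates 2 and 4 lay among the lower PEP lungs. The difference was -0.69 ± 0.29 (adjusted p = 0.257). Its partner Cfap43 had 7.53, 8.45 and 8.95 in the PEP lungs and 8.10, 9.26 and 9.69 in the Air lungs, and a difference of -0.73 ± 0.29 (adjusted p = 0.229).

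Among the microtubule inner proteins, known from bovine and human cilia, Cfap276 had a lowest signal of 5.37, a median of 6.22 and a highest of 6.56 in the PEP lungs of day 21, against 6.03, 7.05 and 7.45 in the Air lungs. The upper PEP lungs overlapped the lower Air lungs, Air replicates 2 and 4. Cfap276 gave the lowest adjusted p of the 49 genes, 0.174, with a difference of -0.82 ± 0.27. Cfap45, another inner protein with an X-box next to its start, had 7.22, 8.12 and 8.65 in the PEP lungs and 7.87, 8.92 and 9.24 in the Air lungs, a difference of -0.70 ± 0.25 (adjusted p = 0.191). Cfap126, an inner protein known as flattop, had 5.53 to 6.85 in the PEP lungs and 6.04 to 7.41 in the Air lungs, a difference of -0.69. Cfap251, of the complex at the foot of the radial spokes, had 6.15 to 7.85 in the PEP lungs and 6.66 to 8.42 in the Air lungs, a difference of -0.68. Over the 27 CFAP genes tested the median was -0.58, the range -0.82 to 0.21, and 1 was positive.

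Tekt1, which lines the inside of the doublet, had a lowest signal of 5.69, a median of 6.63 and a highest of 7.16 in the PEP lungs of day 21, against 6.49, 7.53 and 7.72 in the Air lungs. Again 3 PEP lungs lay below every Air lung. The difference was -0.80 ± 0.27 (adjusted p = 0.180). Tekt2 had 6.17, 6.73 and 7.14 in the PEP lungs and 6.46, 7.25 and 7.49 in the Air lungs, a difference of -0.44 ± 0.20 (adjusted p = 0.308). Tekt5, by contrast, had 5.30, 5.46 and 5.71 in the PEP lungs and 4.85, 5.29 and 5.59 in the Air lungs, a difference of 0.24 (adjusted p = 0.556).

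The assembly factors ran from the most negative estimate of the 49 genes to a positive one. Dnaaf6, which lies below the median gene, had a lowest signal of 3.47, a median of 4.25 and a highest of 5.16 in the PEP lungs of day 21, against 4.33, 5.06 and 5.96 in the Air lungs, and a difference of -0.87 ± 0.31 (adjusted p = 0.191). Dnaaf11 had 5.93, 7.37 and 7.89 in the PEP lungs and 6.95, 8.19 and 8.39 in the Air lungs, a difference of -0.69. Dnaaf5 had 7.11, 7.62 and 7.77 in the PEP lungs and 7.15, 7.47 and 7.75 in the Air lungs, nearly the same range, with a difference of 0.08 ± 0.14 (adjusted p = 0.863). Cfap410 (0.21) and Tekt5 were the other positive estimates, and these 3 genes are among the ones least correlated with the rest over lungs. That correlation includes the differences between groups. As deviations from the group means, r with the rest was 0.71 for Dnaaf5, 0.52 for Cfap410 and -0.11 for Tekt5.

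**Figure D3:**
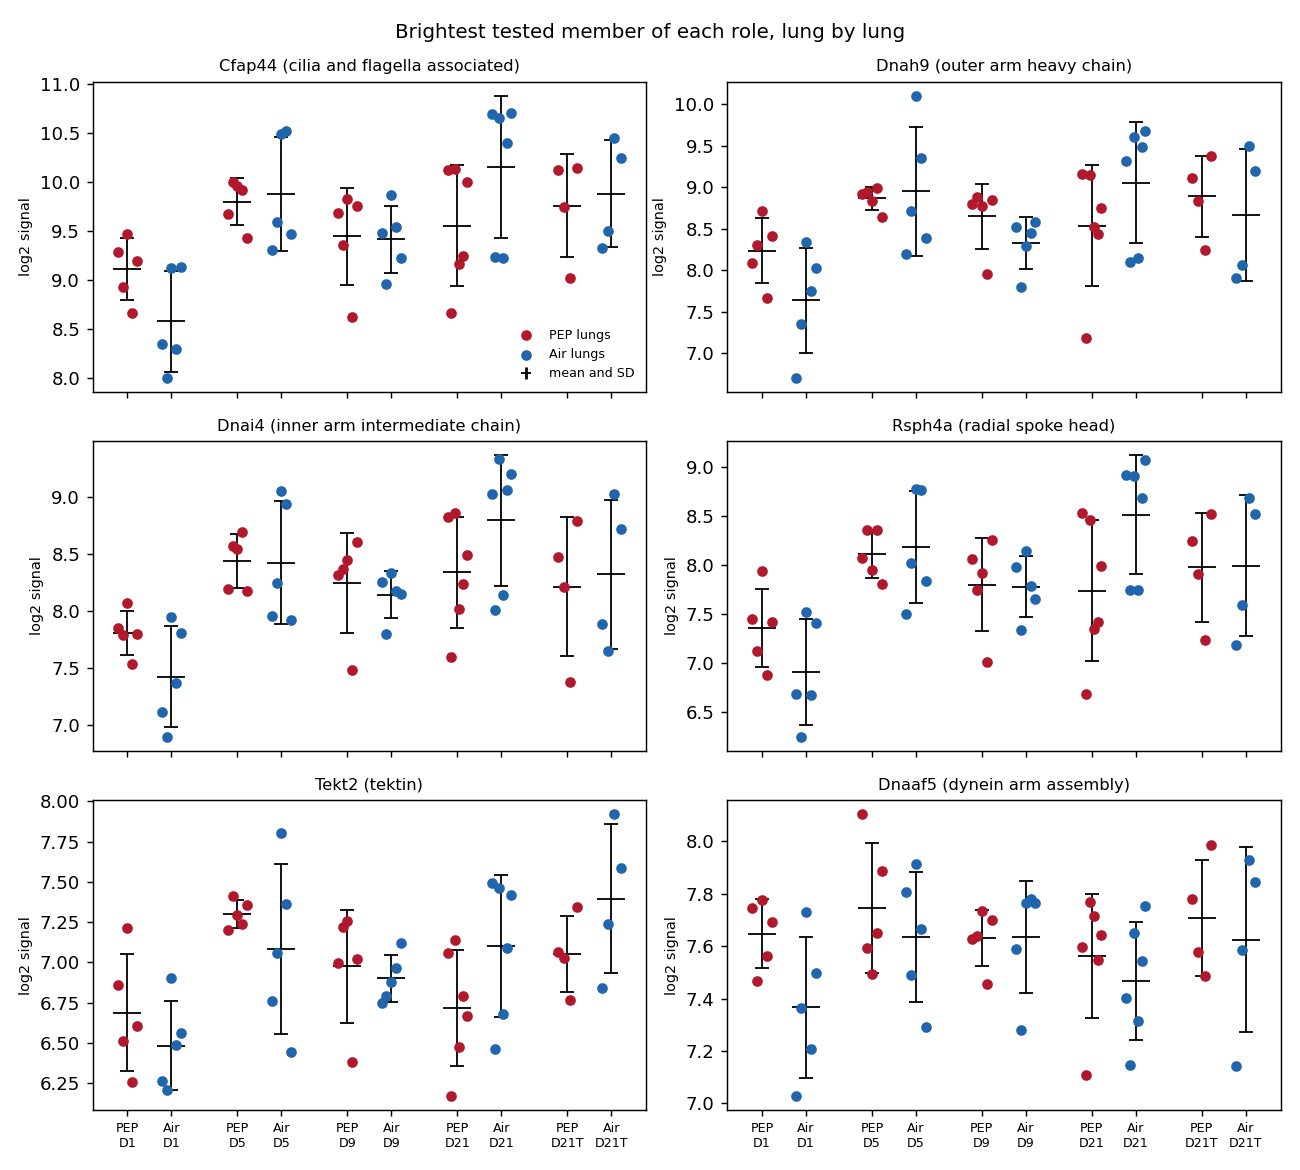
Log2 signal (y axes) by lung and group (x axes) of the brightest tested gene of each role: Cfap44, Dnah9, Dnai4, Rsph4a, Tekt2 and Dnaaf5. Red points are PEP lungs, blue points Air lungs, and bars the group mean and SD; at day 21 Cfap44 averaged 9.56 ± 0.62 in PEP lungs and 10.16 ± 0.72 in Air lungs, while Dnaaf5 averaged 7.56 ± 0.24 in PEP lungs and 7.47 ± 0.23 in Air lungs.

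Leaving out single lungs moved the size of this difference but not its sign. The median over the 37 genes lay between -0.75 without Air replicate 2 of day 21 and -0.42 without PEP replicate 2, and 0 genes were called in each case. The number of the 49 at an unadjusted p below 0.05 was 10 without PEP replicate 2 and 45 without Air replicate 4, and 12 to 18 without Air replicates 1, 3 or 6 or PEP replicates 4 or 5.

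Some markers of other airway and neighbouring cells were also lower in PEP lungs at day 21, and others were not. Among basal cell genes, Krt15 differed by -0.47, Krt14 by 0.22 and Krt17 by -0.04. Of smooth muscle genes, Tagln differed by -0.14, Des by -0.13 and Actg2 by 0.04. For cartilage, Col9a3 differed by 0.16, Cnmd by -0.13 and Col2a1 by -0.05. T cell genes were higher, with Cd3g at 0.73, Cd8a at 0.68 and Cd247 at 0.62 (adjusted p = 0.0406 by limma). The mean over 9 airway secretory cell genes was 7.30 in the PEP lungs (6.04 to 8.73) and 8.05 in the Air lungs (6.44 to 9.38), and 7 of the 8 tested were 1.5-fold or more lower in PEP lungs, with 0 called. The mean over 8 cardiac muscle genes, which in the rat also mark the sleeves around pulmonary veins, was 5.34 in the PEP lungs (3.79 to 7.48) and 6.56 in the Air lungs (3.98 to 8.16), with 7 of 8 at 1.5-fold or more lower and 0 called. Beside both lists, 2.27% of all tested genes were 1.5-fold or more lower. The SE was large for Scgb3a1 (-1.45 ± 1.14) and Myl7 (-1.88 ± 1.19), and smaller for Tnnc1 (-1.70 ± 0.63). Over all 50 lungs Cfap44 correlated with the club cell gene Scgb3a2 with r = 0.72 (rho = 0.73), with Tnni3 of cardiac muscle with r = 0.73 (rho = 0.77) and with Scgb1a1 with r = 0.43 (rho = 0.45). With Sftpc of type 2 cells r was -0.09 (rho = -0.08) and with Alb of hepatocytes -0.06 (rho = 0.03). Of the 10 relations computed, 5 on the log2 values and 5 on deviations from the group means, the log2 values of Scgb3a2 and Tnni3 had the smallest p that 100000 permutations allow (permutation p = 1e-05, adjusted p = 2e-05), and those of Scgb1a1 an adjusted permutation p of 0.00268 (0.0021 for rho). Without the 2 lungs farthest from the median of Cfap44, r was 0.70 for Scgb3a2, 0.73 for Tnni3 and 0.37 for Scgb1a1. Within groups, as deviations from the group means, r was 0.85 for Scgb3a2, 0.64 for Tnni3, 0.57 for Scgb1a1 (adjusted permutation p = 2e-05 for each of the 3) and -0.35 for Sftpc (adjusted permutation p = 0.018). The part of these markers, and of how much airway each piece of lung held, in the difference between PEP and Air lungs was not tested.

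**Figure D4:**
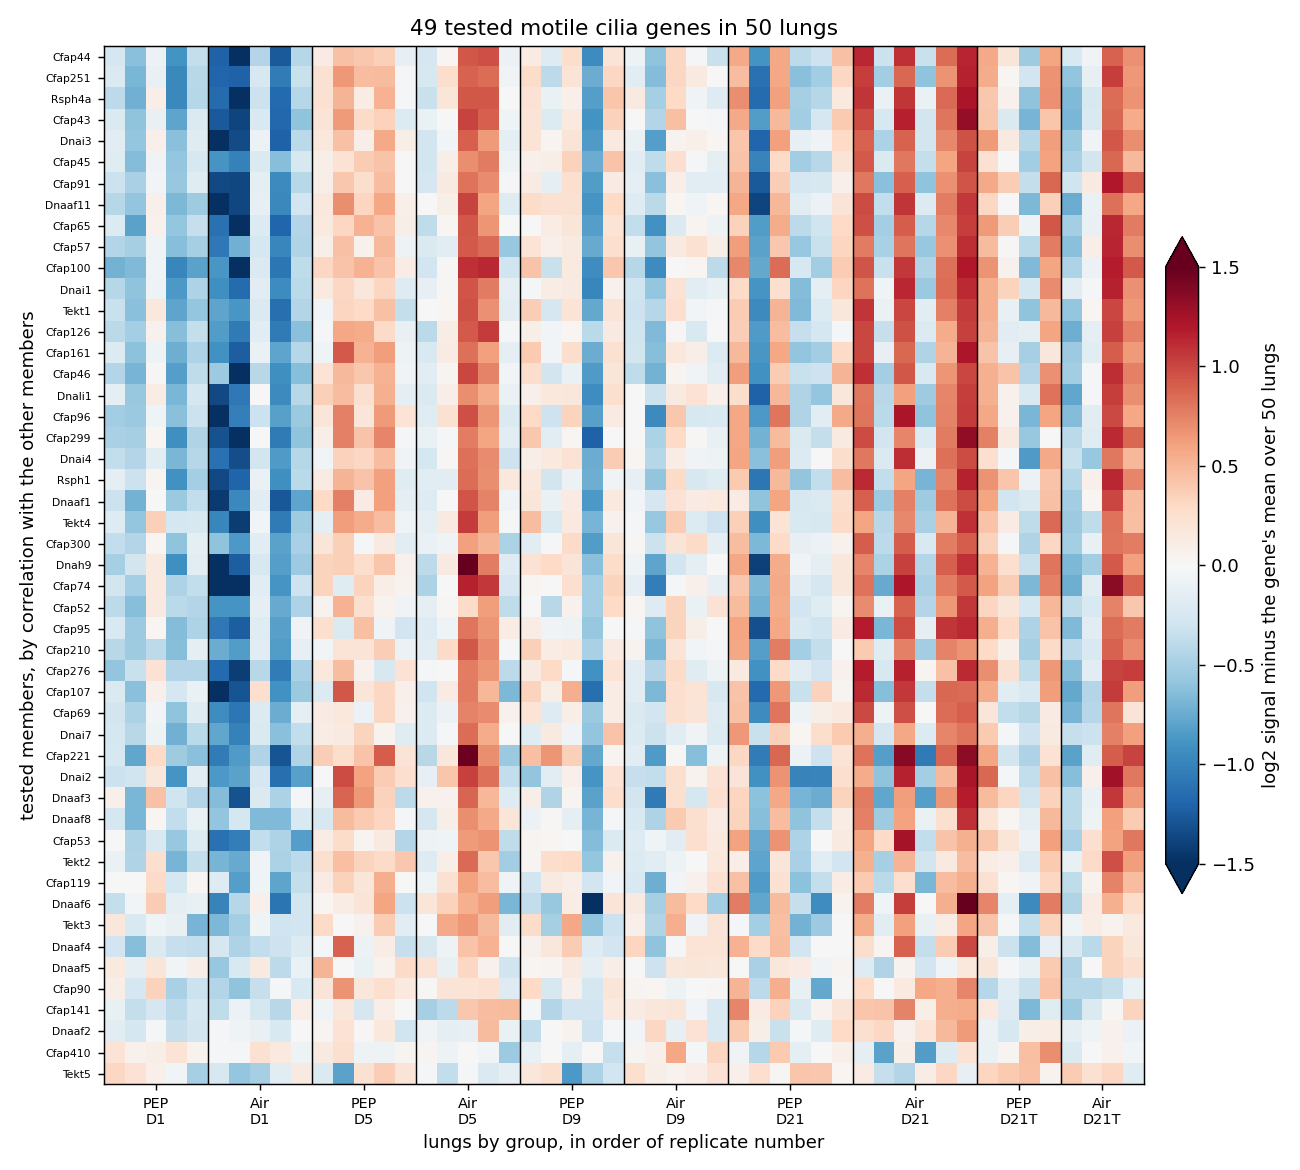
Log2 signal minus the gene's mean over the 50 lungs (colour) for the 49 tested motile cilia genes (rows, ordered by their correlation with the rest) in each lung (columns, by group and replicate number). Columns take 1 colour nearly from top to bottom, and the rows at the foot, Tekt5, Cfap410 and Dnaaf2, do not follow; Air replicates 2 and 4 of day 21 are pale or blue between red columns, and PEP replicate 2 of day 21 and PEP replicate 4 of day 9 are blue.

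At day 1 the cilia genes were higher in PEP lungs, the opposite side from day 21, and again 0 of the 49 were called (0.0% of all tested genes were). The median log2 difference was 0.35, beside 0.01 over all genes, and 46 of the 49 (93.9%) were positive, beside 51.7% of all genes. By limma, 5 of the 49 (10.2%) had an unadjusted p below 0.05, where 6.55% of all tested genes did. Tekt4 had 6.56, 6.18, 7.11, 6.49 and 6.51 in the PEP lungs of day 1, against 5.77, 5.33, 6.71, 5.69 and 6.22 in the Air lungs, and the largest estimate, 0.60 ± 0.26 (adjusted p = 0.710). Air replicates 3 and 5 reached the PEP values and the other Air lungs lay below them. Cfap276 had 5.68, 5.94, 6.49, 5.83 and 5.83 in the PEP lungs and 5.10, 4.85, 5.85, 5.22 and 5.78 in the Air lungs, a difference of 0.58 ± 0.26 (adjusted p = 0.710). Dnah9 had 8.08, 8.31, 8.71, 7.67 and 8.41 in the PEP lungs and 6.71, 7.35, 8.35, 7.76 and 8.03 in the Air lungs, with overlap and a difference of 0.56 ± 0.31 (adjusted p = 0.740). Cfap44 had 9.29, 8.93, 9.47, 8.66 and 9.20 in the PEP lungs and 8.35, 8.01, 9.12, 8.30 and 9.13 in the Air lungs, a difference of 0.49 ± 0.28 (adjusted p = 0.740). Every PEP lung stood above the mean of the Air lungs, and 2 Air lungs, replicates 3 and 5, reached the PEP range.

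The median over the 37 genes at day 1 lay between 0.22 without Air replicate 2 and 0.49 without Air replicate 3, and the number of the 49 at an unadjusted p below 0.05 was 0 without Air replicate 2 or PEP replicate 3 and 17 without Air replicate 3. PEP replicate 1 of day 1 carried high hepatocyte transcripts (mean of 6 genes up to 9.26 in the PEP lungs, against 4.60 to 5.08 in the Air lungs), and without it the median over all 49 was still 0.35, with 46 positive, 3 at an unadjusted p below 0.05 and 0 called. The secretory cell genes averaged 6.73 in the PEP lungs (6.31 to 7.38) and 6.34 in the Air lungs (5.96 to 6.62) of day 1, and their part in the difference was not tested.

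At day 5 and day 9 the estimates lay on both sides of 0. At day 5 the median was -0.08 with 9 of 49 positive, and at day 9 it was 0.05 with 32 of 49 positive. By limma 0 of the 49 were called at either day, 0 had an unadjusted p below 0.05, and 0.0% of all tested genes were called at day 5 and 0.0% at day 9. Cfap44 at day 5 had 9.68, 10.004, 9.96, 9.92 and 9.44 in the PEP lungs and 9.31, 9.59, 10.49, 10.52 and 9.48 in the Air lungs. The PEP lungs stood close together, while Air replicates 3 and 4 stood above all of them, and the difference was -0.17 ± 0.29. Cfap44 at day 9 had 9.68, 9.37, 9.83, 8.62 and 9.75 in the PEP lungs and 9.48, 8.96, 9.88, 9.54 and 9.23 in the Air lungs, with a difference of 0.04 ± 0.30. Leaving out single lungs turned the sign of the median at both days, with -0.26 to 0.09 at day 5 and -0.04 to 0.25 at day 9, the highest being without Air replicate 4 of day 5 and without PEP replicate 4 of day 9.

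Whether the PEP difference itself changed over days 1, 5, 9 and 21 was asked with an F test. 0 of the 49 genes were called, 12 had an unadjusted p below 0.05 by limma, and 0.0% of all tested genes were called. The share of all tested genes at that unadjusted p is not given here, so the 12 cannot be set against it. Cfap276 had the lowest adjusted p, 0.582, and Cfap44 had 0.612. Leaving out single lungs gave 2 of the 49 at an unadjusted p below 0.05 without PEP replicate 2 of day 21 and 36 without Air replicate 2 of day 21.

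**Figure D5:**
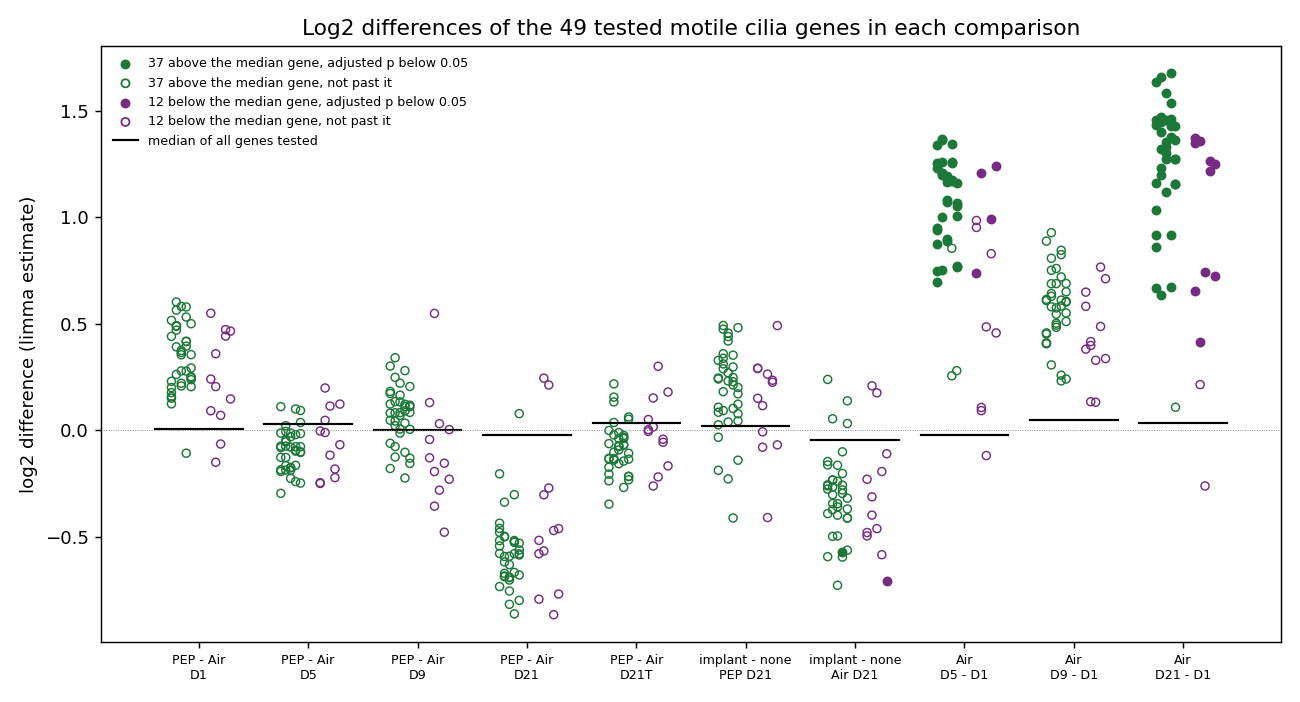
Log2 difference (y axis, limma estimate) of each of the 49 tested motile cilia genes in each of 10 comparisons (x axis); green marks genes above the median gene, purple those below it, filled points have an adjusted p below 0.05, and the black line is the median of all 8202 tested genes. Open points sit mostly above 0 at day 1 and below 0 at day 21 for PEP minus Air, and the filled points lie in the Air lungs, 38 of 49 for day 5 minus day 1 and 46 of 49 for day 21 minus day 1. Of all tested genes, 3.76% and 21.0% were called in these comparisons, in either direction.

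In rats with the telemetry implant the PEP difference at day 21 was close to 0. The median over the 49 genes was -0.07, with 12 positive (24.5%), 0 called and 0 at an unadjusted p below 0.05 by limma. Of all tested genes, 56.1% were positive and 0.0122% were called. Cfap44 had 10.13, 9.74, 9.03 and 10.15 in the implanted PEP lungs, against 9.33, 9.51, 10.45 and 10.25 in the implanted Air lungs. Neither group stood apart, and the difference was -0.13 ± 0.34. Tekt2 had 7.06, 7.03, 6.77 and 7.35 in the implanted PEP lungs and 6.84, 7.24, 7.92 and 7.59 in the implanted Air lungs, with the most negative estimate, -0.35 ± 0.24. The difference of the PEP effect, implant minus no implant, had a median of 0.50 with 47 of 49 positive (95.9%), where 56.9% of all tested genes were positive. By limma 0 of the 49 were called (0.0% of all tested genes), with 1 gene, Cfap90, at an unadjusted p below 0.05 (0.64 ± 0.27, adjusted p = 0.692). The median of the PEP difference with implant over the 37 genes lay between -0.39 without implanted Air replicate 1 and 0.19 without implanted Air replicate 3.

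For the implant itself, in Air lungs of day 21, 2 of the 49 cilia genes were called, both lower (4.08%), a share below the 6.91% of all tested genes called in either direction. Cfap90, a microtubule inner protein, had 4.67, 4.67, 4.74 and 5.00 in the implanted Air lungs, against a lowest signal of 5.10, a median of 5.52 and a highest of 5.83 in the Air lungs without implant. The groups did not overlap, and the difference was -0.71 ± 0.19 (adjusted p = 0.0156). Cfap141 had 6.08, 6.41, 6.64 and 6.96 in the implanted Air lungs, against 6.72, 7.11 and 7.37 without implant, an overlap of 1 lung, and a difference of -0.57 ± 0.19 (adjusted p = 0.0493). Neither gene was called without implanted Air replicate 1, nor without implanted Air replicate 2, where Cfap90 had adjusted p-values of 0.0523 and 0.0608 and Cfap141 0.248 and 0.195. Cfap141 was also not called in limma fits of the compared groups alone (adjusted p = 0.0978), with replicate number as a block (adjusted p = 0.0826), or without replicate 1, 2, 3, 5 or 6 of the Air lungs without implant (adjusted p of 0.0537 to 0.106). Over the 49 genes the median was -0.30 with 6 positive (12.2%), where 43.7% of all tested genes were positive. The number positive was 25 without implanted Air replicate 1 and 20 without implanted Air replicate 2. The median over the 37 was 0.03 without implanted Air replicate 1 and -0.62 without implanted Air replicate 3. In PEP lungs of day 21 the same comparison had a median of 0.22 with 40 of 49 positive (81.6%), where 53.1% of all tested genes were positive. By limma 0 were called, where 3.8% of all tested genes were called, and 1 had an unadjusted p below 0.05, Cfap141 at -0.41 ± 0.18 (adjusted p = 0.217). Cfap90 had 4.67, 4.93, 4.76 and 5.52 in the implanted PEP lungs and a lowest signal of 4.32, a median of 5.05 and a highest of 5.64 in the PEP lungs without implant, groups that overlapped. The Air comparison and the PEP difference at day 21 share the 6 Air lungs without implant.

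In Air lungs alone the cilia genes were higher at day 21 and at day 5 than at day 1, with day 9 between, and the comparisons over days made the most calls among cilia genes of those run here. Over days 1, 5, 9 and 21 an F test called 44 of the 49 genes (89.8%), where 18.5% of all tested genes were called, with Cfap44 lowest at an adjusted p of 0.000247. The genes not called were Dnaaf3 (adjusted p = 0.0518), Dnaaf2 (0.0818), Cfap410 (0.176), Tekt5 (0.302) and Dnaaf5 (0.369). Day 21 Air lungs against day 1 Air lungs gave 46 of 49 called, all higher (93.9%), where 21.0% of all tested genes were called in either direction. The median log2 difference was 1.32 over the 37 genes above the median gene and 0.98 over the 12 below it, of which 36 and 10 were called. Days spent in the chambers, the age of the rats and any unlabelled batch cannot be told apart here.

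Cfap44 had a lowest signal of 9.23, a median of 10.53 and a highest of 10.71 in the Air lungs of day 21, against 8.35, 8.01, 9.12, 8.30 and 9.13 in the Air lungs of day 1. The groups did not overlap, by a narrow margin, and the difference was 1.66 ± 0.29 (adjusted p = 5.13e-05), a 3.16-fold higher signal. Rsph4a had 7.75, 8.80 and 9.07 at day 21, against 6.69, 6.25, 7.53, 6.67 and 7.41 at day 1, without overlap, and had the largest difference, 1.68 ± 0.30 (adjusted p = 7.0e-05). Dnah9 had 8.10, 9.4 and 9.67 at day 21, against 6.71, 7.35, 8.35, 7.76 and 8.03 at day 1, where 1 day 1 lung reached the lower day 21 lungs, and a difference of 1.47 ± 0.32 (adjusted p = 0.000735). Tekt2 had 6.46, 7.25 and 7.49 at day 21, against 6.26, 6.21, 6.9, 6.49 and 6.56 at day 1, an overlap of several lungs and a smaller difference of 0.67 ± 0.20 (adjusted p = 0.0123). Dnai4 (1.43 ± 0.25, adjusted p = 7.26e-05), Cfap43 (1.64) and Cfap276 (1.58) were of the same order. The smallest called difference was that of Dnaaf2, 0.42 ± 0.13. Dnaaf5 (0.11, adjusted p = 0.647), Tekt5 (0.21, adjusted p = 0.428) and Cfap410 (-0.26, adjusted p = 0.205) were not called.

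By role, 26 of 27 CFAP genes were called in this comparison with a median of 1.32, 6 of 6 intermediate and light chains with a median of 1.30, 7 of 8 assembly factors with a median of 0.89 and 4 of 5 tektins with a median of 0.67, besides both spoke head genes and Dnah9. Beside these counts, 21.0% of all tested genes were called in either direction. Without single lungs, 42 to 46 of the 49 were called and the median over the 37 genes was 1.18 to 1.5.

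The intermediate days were less firm. Day 5 Air lungs against day 1 Air lungs gave 38 of 49 called, all higher (77.6%), where 3.76% of all tested genes were called, with a median of 1.00. Cfap44 gave 1.36 ± 0.28 (adjusted p = 0.0101) and Dnah9 1.37 ± 0.32 (adjusted p = 0.0134). The count fell to 0 of 49 without Air replicate 3 of day 5, without Air replicate 4 of day 5 or without Air replicate 2 of day 1, and to 19 and 22 without Air replicates 1 and 4 of day 1, while the median over the 37 genes stayed between 0.87 and 1.27. Day 9 Air lungs against day 1 Air lungs gave 0 of 49 called, where 0.0488% of all tested genes were called. An unadjusted p below 0.05 by limma was reached by 30 of the 49 (61.2%), where 13.6% of all tested genes reached it, and the median was 0.58 with all 49 positive, where 58.7% of all tested genes were positive. These comparisons share the day 1 Air lungs with each other and with the PEP difference of day 1, and the day 21 Air lungs with the PEP difference of day 21.

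Secretory cell genes were also lowest in the Air lungs of day 1. Their mean in Air lungs was 6.34 at day 1 (5.96 to 6.62), 7.64 at day 5 (6.56 to 8.98), 7.44 at day 9 (6.43 to 8.52) and 8.05 at day 21 (6.44 to 9.38), and 7 of the 8 tested were called higher at day 21 than at day 1, beside the 21.0% of all tested genes called in either direction. In the same comparison 6 of 8 cardiac muscle genes were called higher, with a mean of 6.56 in the Air lungs of day 21 and 4.04 in those of day 1, and 7 of 8 T cell genes were called lower. Their part in the difference of the cilia genes between these days was not tested.

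In PEP lungs over the same 4 days 0 of the 49 genes were called, where 4.82% of all tested genes were called. An unadjusted p below 0.05 by limma was reached by 8, and the share of all tested genes that reached it is not given here. Tekt2 had the lowest adjusted p, 0.108, and had 6.86, 6.51, 7.21, 6.26 and 6.60 at day 1, 7.20, 7.41, 7.30, 7.24 and 7.36 at day 5, 6.99, 7.22, 7.26, 6.38 and 7.02 at day 9, and a lowest signal of 6.17, a median of 6.73 and a highest of 7.14 at day 21. The PEP lungs of day 5 stood together above most of the others. The mean level of the 37 genes in PEP lungs was 6.93 ± 0.26 at day 1, 7.52 ± 0.19 at day 5, 7.22 ± 0.38 at day 9 and 7.23 ± 0.53 at day 21, against 6.55 ± 0.41, 7.53 ± 0.48, 7.16 ± 0.26 and 7.72 ± 0.62 in Air lungs at the same days (SD, n = 5, and 6 at day 21). The difference between both courses is the F test of the PEP effect over days given above, in which 0 genes were called.

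Other genes of the axoneme that the symbol rule does not reach were read from a written list, of which 41 of 70 were named on the array and 39 tested. At day 21 all 39 were lower in PEP lungs, with a median of -0.58 and 0 called by limma. An unadjusted p below 0.05 was reached by 27, where 14.3% of all tested genes reached it. Iqca1, of the nexin-dynein regulatory complex, was at -0.86 ± 0.32 (adjusted p = 0.203) and Spag6l, of the central pair, at -0.80 ± 0.30 (adjusted p = 0.203). At day 1 all 39 were higher in PEP lungs, with 0 at an unadjusted p below 0.05. In Air lungs 38 of the 39 were called higher at day 21 than at day 1, where 21.0% of all tested genes were called in either direction. Genes of intraflagellar transport and the BBSome, which carry cargo along the cilium, were also read from a written list. Of these, 12 passed the variance filter and were tested, so listed genes that varied little between lungs were left out. All 12 were lower in PEP lungs at day 21, where 46.1% of all tested genes were positive. An unadjusted p below 0.05 was reached by 9, where 14.3% of all tested genes reached it, and 0 were called by limma. Dync2li1, of the retrograde motor, was at -0.53 ± 0.15 (adjusted p = 0.103). Of the 12, 10 were called higher in the Air lungs of day 21 than in those of day 1, beside the same 21.0%. Of 6 measured regulators of the ciliated cell fate, Rfx2, Mcidas, Gmnc, Myb, Ccno and Deup1, 5 were lower in PEP lungs at day 21 and 6 higher at day 1, with 0 called in either comparison, 0 at an unadjusted p below 0.05 at day 21 and 2 at day 1. The regulator Foxj1 was also on the written list, but no probe set was named for it here. In Air lungs 5 of the 6 were called higher at day 21 than at day 1, again beside 21.0%.

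The 8 cilia genes not past the variance filter varied little between lungs, with a median SD of 0.18 over the 50 lungs, against 0.58 for the 37. Of these, 7 lay above the median gene: Cfap20 (mean 8.54), which seals the inner junction of the doublet, Dnaaf9 (8.32), Cfap298 (7.94), the light chain Dnal1 (7.87), Cfap418 (7.37), Cfap97 (7.07) and Dnaaf10 (6.94). Rsph6a, the spoke head gene of mouse sperm, was the dimmest at 2.99. Cfap298, an assembly factor, had a lowest signal of 7.72, a median of 8.05 and a highest of 8.17 in the PEP lungs of day 21, against 8.01, 8.25 and 8.42 in the Air lungs, a difference of -0.26. Fitted without the filter, 4 of the 8 were higher in day 21 than in day 1 Air lungs at an adjusted p below 0.05, where 19.2% of all named genes were called in either direction, namely Cfap298 (0.42), Cfap418 (0.37), Dnaaf10 (0.36) and Cfap97 (0.22). Dnaaf9, an assembly factor, differed by -0.02 and Rsph6a by 0.01. In the same fit the implant in Air lungs of day 21 gave calls for Dnaaf10 (-0.45, adjusted p = 0.00522 by limma) and Dnaaf9 (-0.21, adjusted p = 0.0379), both lower with the implant, where 6.53% of all named genes were called. In PEP lungs of day 21 the implant gave a call for Dnaaf10 (-0.34, adjusted p = 0.0343 by limma), where 4.68% of all named genes were called.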

How the data were processed

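For the 50 arrays, log2 values of 36685 probe sets had been deposited. Per the submitters' processing notes and the study's methods, the authors made these log2 values by robust multi-array averaging with oligo in R 3.4 and used limma. Quantile normalization within that step removes a shift shared by most genes, and array medians lay between 4.92 and 5.11. Arrays have no read depth, and their number limits the precision. Single genes were given for 14824 probe sets, several for 829, and 21032 were not named here. The brightest probe set of a gene was used. Following the study's methods, genes with a variance below 0.05 were dropped. Differences were fitted with limma 3.58.1 in R 4.3.3 over the 10 groups, with gene-by-gene array weights (0.59 to 1.71), empirical Bayes moderation, two-sided p-values and Benjamini-Hochberg adjustment over 8202 genes. The script was tested on simulated data. Correlations over lungs used 100000 permutations, two-sided, over a family of 10. Motifs were searched in RefSeq promoters (GRCr8). The members and gene lists were chosen with earlier results of these data known. Genes given in full by rule are the brightest tested one of each role, those called for the implant, and the 10 above the median gene with the largest difference at day 21. Lung values of Rsph1, Tekt4, Tekt5, Dnaaf6 and Cfap298 were given outside this rule, with their results known. The remaining members are named with single values. Groups were taken from sample titles. The authors' own fold changes were not used. The table held 0 columns of no sample. Alternatives were equal array weights, arrays centred on their medians, no variance filter, robust moderation, all named probe sets, the compared groups alone, a replicate block and each lung left out.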

Additional observations from a re-analysis of the deposited data

Results flagged for a closer look

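In groups of 4 to 6 lungs, a lowest or highest lung far from its neighbour was looked for in 9 measures over 90 groups, where chance alone flags about 1 in 20. In all 8 results were flagged, those of the next paragraph included. The mean of the 37 genes, Dnah9 and Dnai4 move together over lungs, so flags of 1 lung in them are not independent. PEP replicate 4 of day 9 was the lowest of its group for the mean of the 37 genes (6.56, the next lung at 7.22), for Dnah9 (7.95, the next at 8.78) and for Dnai4 (7.49, the next at 8.32). PEP replicate 2 of day 21 was the lowest of its group for Dnah9 (7.19, the next at 8.44) and for Dnaaf5 (7.11, the next at 7.55). Cfap90 was highest in PEP replicate 2 of day 5 (5.77, the next at 5.35).

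For Cfap44 every PEP lung lay above the Air mean at day 1 and below it at day 21, and the plain differences, PEP minus Air, were 1.13 apart. The pair of days was not tested by itself, and the F test over the 4 days gave an adjusted p of 0.612 by limma. For Tekt2 every PEP lung lay above the Air mean at day 5 and below it at day 21 with implant, with differences 0.562 apart, and this was not tested.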

How the results depend on the processing

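The counts of called cilia genes for PEP against Air were 0 at every day under every alternative run, and Air lungs of day 21 against day 1 gave 42 to 46 of 49 calls without single lungs. Counts that moved were those of the implant and of day 5. For the implant in Air lungs, 2 genes were called, against 4 with no variance filter, 4 with arrays centred on their medians, 1 with the compared groups alone and 0 to 3 without single lungs. For the implant in PEP lungs, 0 were called, against 1 with no variance filter. For day 5 against day 1 in Air lungs, 38 were called, against 0 with equal array weights and 0 to 40 without single lungs, and for PEP lungs over days 0 to 1 without single lungs, both tried after seeing the data. Of the results for single genes, 436 kept their side of the threshold, 14 lost it and 1 gained it; Tekt2 over days in Air lungs had an adjusted p of 0.0902 with equal array weights.

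The lungs share only a replicate number: over 25 same-numbered PEP and Air pairs the deviations correlated over 0.1 in 4, all of day 21 without implant, where the 6 pairs had r of 0.0532 to 0.286, and 6 lungs correlated best with their own number. The implanted pairs of day 21 had r of -0.356 to 0.0118. With replicate number as a block, the implant in Air lungs called 1 gene, day 5 against day 1 in Air lungs 41 and PEP against Air at day 21 still 0, with 38 at an unadjusted p below 0.05 (30 without the block) and a median of -0.52. Other calls stayed within 1.5 times.

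Groups of 4 to 6 lungs limit every comparison, and lungs of 1 group differed widely in these genes. No label names a batch or the piece of lung taken.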
